A study of Homo sapiens with 8 samples.

Results

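The cytosolic ribosomal protein genes were followed across 8 polyA RNA-seq libraries of HEK293, a human embryonic kidney cell line. Members were taken by symbol: RPL or RPS with a number and an optional A, L or X, together with RPSA, RPLP0, RPLP1 and RPLP2, without pseudogenes, ribosomal S6 kinases or antisense genes. The rule gave 81 of the 58440 genes in the count table, 49 of the large ribosomal subunit and 32 of the small one. The study compared cells of the genotype labelled HTR1E-stable, which overexpress the serotonin receptor gene HTR1E, with control HEK293 cells, and asked how serotonin acts in each. The 4 labelled groups of 2 samples were HTR1E-overexpressing cells with serotonin, HTR1E-overexpressing cells without ligand, control cells with serotonin and control cells without ligand. All were starved of serum for 3 h, and the treated ones then received 1 µM serotonin for 1 h. The promoter behind HTR1E and whether the line is 1 clone are not given in the sources used here, and nothing says that the 2 samples of a group came from separate cultures, so that p-values measure the spread between these samples only.

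The names of the 8 columns of counts state the treatment, followed by a letter A or B with or without an R, and the labels tie neither letter to a cell line. Within a letter the library without the R is numbered 1 here and the one with it 2, as names only. HTR1E stood at 253 and 249 counts-per-million (CPM) in the serotonin libraries A1 and A2 and at 202 in each of the no-ligand libraries A1 and A2, against 0.255 and 0.399 in the serotonin libraries B1 and B2 and 0 counts in the no-ligand libraries B1 and B2. The rule for the HTR1E line takes the 4 libraries with the most HTR1E, which are the 4 with the letter A. They are called A libraries here and the others B libraries, because that assignment rests on the measured receptor and not on a label. With 1 line on each side, the receptor and any other difference between the 2 sets cannot be told apart.

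Ribosomal proteins assemble with ribosomal RNA into the small subunit, which decodes the mRNA, and the large subunit, which joins the amino acids. Nearly every one is needed in a single copy per ribosome, and their genes are among the most highly expressed in growing cells. Most of their mRNAs begin with a terminal oligopyrimidine (TOP) tract, a C followed by further pyrimidines, through which mTOR and the RNA-binding protein LARP1 set their translation and stability. In HEK293 cells, as in other cultured cells, serum starvation lowers the translation of these TOP mRNAs.

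The start sites show that feature in sequence. Promoter windows from RefSeq, build GRCh38.p14, were found for 64 of the 81 members, with 79 promoters in all. The first windows belong to members whose values are described at length in the comparisons, with the pyrimidine run from the annotated start in capitals, and each shows 30 bases before the start and 20 bases from it on.
RPS16 (chr19:39435930-39435979, minus strand): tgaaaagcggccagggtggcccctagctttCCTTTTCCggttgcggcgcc
RPS19 (chr19:41860225-41860274, plus strand): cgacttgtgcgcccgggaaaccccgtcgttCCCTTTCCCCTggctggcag
RPL18 (chr19:48619159-48619208, minus strand): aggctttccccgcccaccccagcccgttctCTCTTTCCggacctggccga
RPL28 (chr19:55385902-55385951, plus strand): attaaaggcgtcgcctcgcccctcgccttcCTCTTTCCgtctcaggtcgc
RPL36A (chrX:101390981-101391030, plus strand): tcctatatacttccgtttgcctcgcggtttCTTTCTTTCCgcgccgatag
RPSA (chr3:39406690-39406739, plus strand): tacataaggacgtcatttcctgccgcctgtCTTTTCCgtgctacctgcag
RPL39 (chrX:119791611-119791660, minus strand): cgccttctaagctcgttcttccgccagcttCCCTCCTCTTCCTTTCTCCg
RPLP1 (chr15:69452788-69452837, plus strand): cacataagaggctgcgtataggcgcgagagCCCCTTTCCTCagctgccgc
Further windows belong to members without such a tract at the annotated start, shown for contrast; RPL3 has a run of 4 pyrimidines, 1 too short for the definition used.
RPL3 (chr22:39319604-39319653, minus strand): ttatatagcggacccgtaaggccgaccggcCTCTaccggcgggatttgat
RPL4 (chr15:66504836-66504885, minus strand): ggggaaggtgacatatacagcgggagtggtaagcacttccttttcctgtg
RPS27L (chr15:63157458-63157507, minus strand): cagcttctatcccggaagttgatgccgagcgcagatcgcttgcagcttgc
RPS4X (chrX:72277229-72277278, minus strand): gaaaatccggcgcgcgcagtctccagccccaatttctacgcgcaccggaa
A start with C followed by 4 bases that are each C or T was found in 46 of 64 members (71.9%), against 5.14% of the 27305 genes with a promoter entry. The count depends on where RefSeq places a start. The letters CCGGAAG or CTTCCGG, which are 1 motif on both strands, were present in the window from 250 bases before to 50 bases after the start of 23 members (35.9%), against 12.2% of all genes. AAGATGGC or its reverse complement GCCATCTT was present in 6 members (9.38%), against 3.52%. TATAAA in the 50 bases before the start was present in 3 members (4.69%), against 3.33% of all genes.

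Depth and mitochondrial content differed between libraries. The libraries held 2604885 to 9072278 counts, and the lowest total belonged to no-ligand B1. In no-ligand B1, genes of the mitochondrial chromosome took 54.4% of the counts and the mitochondrial ribosomal RNA genes alone 43.9%, against 7.37% to 15.4% for these rRNA genes in the other 7 libraries. Serotonin B2 had the next highest mitochondrial share, 36.3%, with 9.94% in rRNA genes. Because no-ligand B1 is 1 of only 2 libraries of its kind, the members' counts and median in each comparison that rests on it are given with and without it. Of 8 genes listed as expressed in HEK293 all passed the low-count filter, and of 7 markers of other cells (blood, liver, fibroblast, endothelium) 1 did, COL1A1, while PTPRC and HBB had 0 counts in all 8 libraries.

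Ribosomal protein genes made up 4.88% and 3.34% of all counts in serotonin A1 and A2, 4.48% and 4.74% in no-ligand A1 and A2, 6.06% and 4.73% in serotonin B1 and B2, and 1.25% and 6.08% in no-ligand B1 and B2. No-ligand B1 was the lowest by far. Of the counts on nuclear genes, the members took 5.97%, 4.43%, 5.46% and 5.82% in these A libraries in the same order, and 8.04%, 7.43%, 2.74% and 7.50% in the B libraries. On that base the other 3 B libraries lay above all 4 A libraries. A lower share of these transcripts cannot be told apart here from more RNA of other kinds in the library, nor fewer cells from less RNA per cell.

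**Figure D1:**
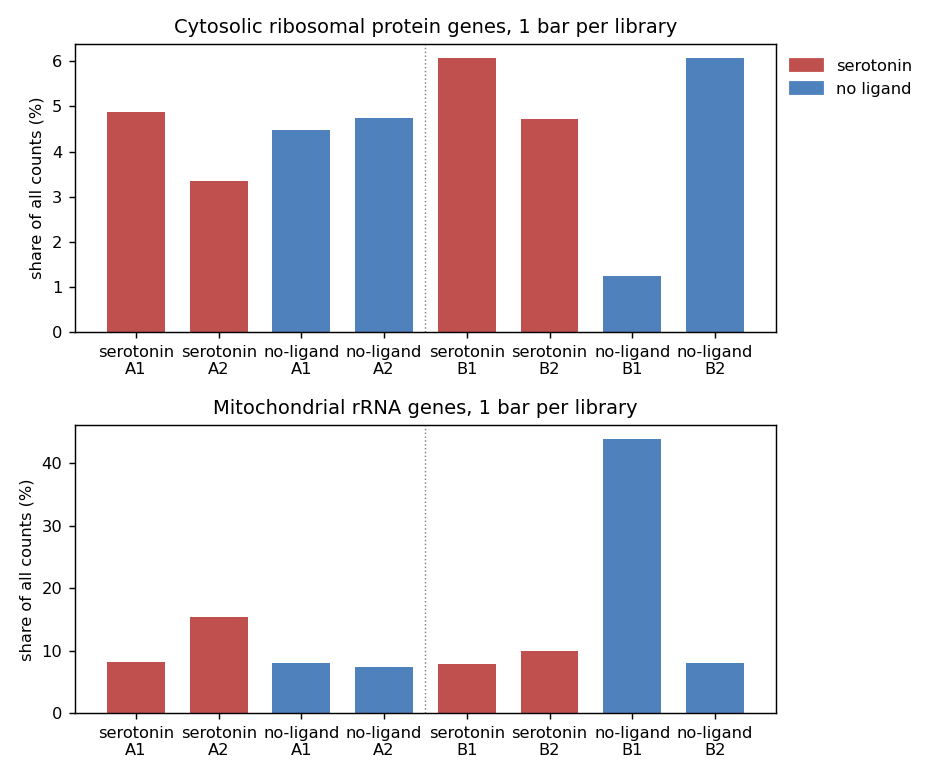
Share of all counts in each library (vertical axes, percent) taken by the cytosolic ribosomal protein genes (upper panel) and the mitochondrial rRNA genes (lower panel), with 1 bar for each of the 8 libraries; red bars are serotonin and blue bars no ligand, A libraries left of the dotted line. No-ligand B1 has the lowest ribosomal protein share (1.25%) and the highest rRNA share (43.9%), and serotonin A2 the next lowest and next highest (3.34% and 15.4%).

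The members moved largely together from library to library. Counts were scaled by TMM, which corrects library size for composition, and expressed as CPM, and 79 members passed the filter on low counts; RPL3L, a muscle paralog of RPL3, had 24 counts in all and RPL10L, a testis paralog of RPL10, had 1, and neither was tested. Set against each gene's mean over the 8 libraries on the log2 scale, the median of the 79 members was 0.07 in serotonin A1, -0.39 in serotonin A2, -0.03 in no-ligand A1 and 0.09 in no-ligand A2. It was 0.52 in serotonin B1, 0.42 in serotonin B2, -1.13 in no-ligand B1 and 0.46 in no-ligand B2. In no-ligand B1 the large subunit median was -1.04 and the small subunit median -1.19, and in serotonin B2 they were 0.49 and 0.28.

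**Figure D2:**
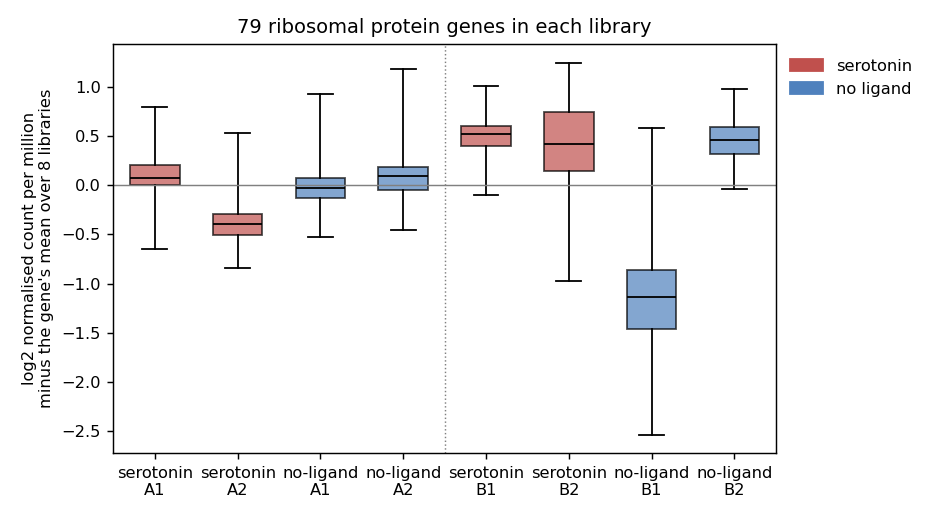
Log2 normalised CPM of the 79 tested members minus each gene's mean over the 8 libraries (vertical axis), by library; boxes span the quartiles, the line is the median and whiskers reach the lowest and highest member; red is serotonin and blue no ligand. The no-ligand B1 box lies lowest, with a median of -1.13, and the serotonin A2 box next, at -0.39.

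Between the 2 libraries of a kind, the members shifted as a block in some pairs and spread in others. Serotonin A2 minus serotonin A1 had a median of -0.49 log2 over the members, with 78 of 79 below 0; the exception was RPS10 at 0.90. No-ligand B2 minus no-ligand B1 had a median of 1.58, with 77 of 79 above 0. No-ligand A2 minus no-ligand A1 had a median of 0.12. In serotonin B2 minus serotonin B1 the median was only -0.08, but members ranged between -1.17 for RPS29 and 0.81 for RPL28. Across the 79 members that difference was larger at higher GC content of their transcripts (Pearson r = 0.43, Spearman rho = 0.40), and across 13483 genes r was 0.42. In the serotonin A pair r was -0.20 over the members and -0.42 over all genes. Across the members the fitted log2 fold change correlated with GC content at r = 0.29 (rho = 0.41) for serotonin in the A libraries and at r = 0.38 (rho = 0.37) in the B libraries, where leaving out no-ligand B1 gave r = 0.29 (rho = 0.27). For the A libraries against the B libraries it was r = 0.15 (rho = 0.16) without ligand and r = -0.15 (rho = -0.09) after serotonin. These are correlations across genes of the same libraries, genes are not independent replicates, and no comparison was refitted with GC content.

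**Figure D3:**
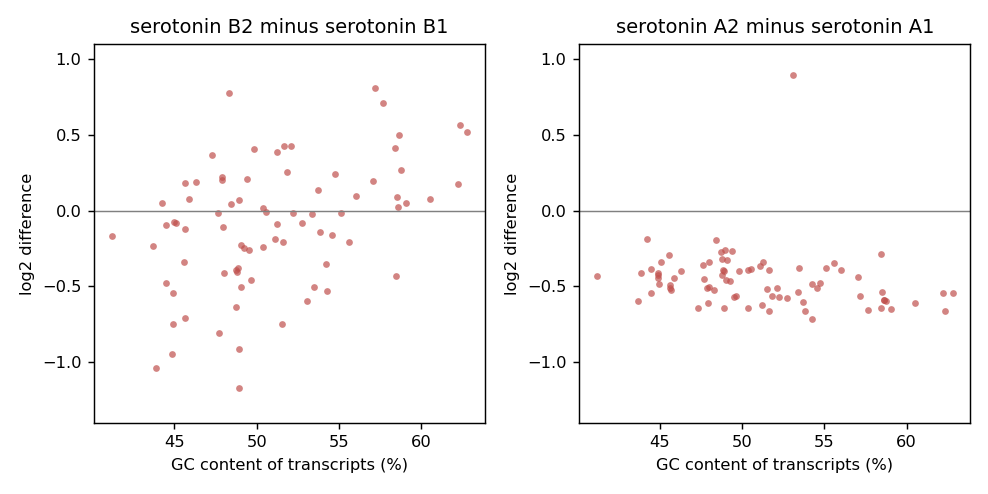
Difference between the 2 serotonin libraries of each set in log2 normalised CPM (vertical axes) against the mean GC content of a gene's transcripts in percent (horizontal axes), 1 point per tested member; left, serotonin B2 minus serotonin B1; right, serotonin A2 minus serotonin A1. On the left the members spread between -1.17 and 0.81 and lie higher at high GC (r = 0.43), and on the right all but RPS10 lie below 0.

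Levels were compared between genes as normalised CPM per kb of merged exon length, averaged over the 8 libraries. The highest were RPS18, which sits at the head of the small subunit (661 ± 347, SD, n = 8), RPL8, close to the peptidyl transferase centre (657 ± 265), RPS2 at the mRNA entry (649 ± 162) and RPL13A (557 ± 156). Each gap between neighbours in this order is smaller than the SDs, which include no-ligand B1. Because the members moved largely together across the same libraries, these SDs do not measure whether neighbouring genes differ. That was not tested. The lowest tested members were RPL17 (7.44 ± 1.15), RPL39L (6.94 ± 4.17), RPS10 (3.36 ± 0.878), RPL36A (3.2 ± 1.32) and RPS27L (2.79 ± 0.983). The order of the members per kb was nearly the same in all libraries, with Spearman rho of 0.91 or higher in the 28 pairs of libraries. The 10 members with the most counts took 29.7% of all member counts.

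Some low levels are bounded by how reads were counted. Of the 81 members, 34 share exon bases with another gene on the same strand: RPS10 shares 39.4% with RPS10-NUDT3, RPL17 32.7% with RPL17-C18orf32 and RPL36A 8.40% with RPL36A-HNRNPH2. In addition 77 members have named pseudogenes in the table, 1588 in all, whose counts came to 2.17% of the members' own. For RPL36A the 52 pseudogenes held 1164 counts, against 695 for the gene itself, and for RPL17 49 pseudogenes held 1605, against 1059. The levels of RPL36A, RPL17 and RPS10 are therefore uncertain. Merged exon length can also far exceed the mRNA: RPS29, a short small-subunit protein, is listed with 9845 bases, which lowers its level per kb. Highly expressed members are affected too. RPS18 is listed with 1898 bases against a mean transcript length of 601, and RPLP1 with 3271 against 633. The order per kb therefore depends on the length used.

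After serotonin, the A libraries showed no member that passed the test. Of 79 members 0 were called higher and 0 lower (edgeR quasi-likelihood test, Benjamini-Hochberg adjusted p under 0.05), where 0% of the 17144 genes tested were called in either direction; at an unadjusted p under 0.05 the members again had 0 in each direction, against 0.274% of genes higher and 0.0875% lower, and DESeq2 called 0. The median log2 fold change of the members was -0.16, against -0.02 for all genes, with 3 members above 0, RPL17 and RPS10 among them, and 76 below. RPLP0, the scaffold of the ribosomal stalk, had 1104 and 849 normalised CPM in serotonin A1 and A2, against 1042 and 1119 in no-ligand A1 and A2, a log2 fold change of -0.15 (SE 0.53). RPS6, the small-subunit protein phosphorylated by S6 kinase, had 779.8 and 573 with serotonin, against 743 and 818 without ligand (-0.21, SE 0.43). RPL5, which carries a small rRNA into the large subunit and can bind MDM2, had 582 and 441, against 557 and 619.8 (-0.20, SE 0.41). In each of these 3 genes serotonin A2 was the lowest of the 4 libraries, and serotonin A1 lay beside the no-ligand pair, so the treatments overlapped.

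Only 4 members did not overlap between the treatments in the A libraries, all lower with serotonin (RPL41, RPL23A, RPS3A and RPL39L), where 14.7% of all tested genes did so downwards and 12.3% upwards. RPS3A, a small-subunit protein, had 388 and 298 with serotonin, against 402 and 414 without ligand. RPL41, the shortest of the ribosomal proteins, had 249 and 199, against 254 and 274. The direction of the median rested on serotonin A2, which also had the higher mitochondrial rRNA share of its pair (15.4%, against 8.18% in serotonin A1): without that library the median was 0.05, with 53 members above 0 and 26 below, and without serotonin A1 it was -0.44. With the mitochondrial rRNA share as a covariate, a setting added after seeing the data, the median was 0.16, with 75 members above 0, 4 below and 0 called. The widest gap in that share within a pair was between no-ligand B1 and B2 (43.9% and 8.06%), so the fitted slope rests mainly on that pair. This setting is therefore not a separate check beside leaving out no-ligand B1.

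In the B libraries the members stood higher with serotonin in the fit of all 8 libraries, but none passed the test. The median log2 fold change was 0.56, against 0.01 for all genes, with 72 members above 0 and 7 below; 0 members were called higher and 0 lower, where 0.0117% of genes were called higher (the immediate early genes NR4A1 and NR4A2) and 0% lower. At an unadjusted p under 0.05, 6 members were higher and 0 lower, against 14.5% of genes higher and 12% lower. DESeq2 called 4 members higher, RPL14, RPL18, RPL28 and RPS18, where it called 6.64% of its genes higher. RPS18 had 1829.7 and 2457 normalised CPM in serotonin B1 and B2, against 294 and 1363 in no-ligand B1 and B2 (1.37, SE 0.59, adjusted p = 0.171 in edgeR; 0.65, adjusted p = 0.317, without no-ligand B1). RPL14, a large-subunit protein, had 525 and 900.2, against 198 and 387 (1.28, SE 0.42, adjusted p = 0.101 in edgeR; 0.88, adjusted p = 0.186, without no-ligand B1). In both genes no-ligand B1 was the lowest library, and serotonin B2 was the highest.

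That direction rested on no-ligand B1. Without it, the median over the members was 0.02, with 43 above 0 and 36 below, and 0 members were called, where 1.06% of 18453 genes were called higher and 0.358% lower; the lone no-ligand B2 library is then taken to vary like the other groups. With the mitochondrial rRNA share as a covariate, which also leans mainly on no-ligand B1, the median was 0.14, with 50 above 0, 29 below and 0 called. Without no-ligand B2 in place of no-ligand B1, the median was 1.56 and 73 members were called higher, where 15.3% of genes were. With all libraries, 32 members were higher and 1 (RPL17) was lower in both serotonin B libraries than in both no-ligand B libraries, against 28.5% and 25.5% of all genes. RPSA, the laminin receptor protein of the small subunit, had 716 and 708, against 275 and 842; its log2 fold change was 0.35 with no-ligand B1 and -0.24 without it. RPLP0 had 1452 and 1024, against 468 and 1772, with 0.14 and -0.52. For both genes no-ligand B2 was the highest of the 4 libraries and no-ligand B1 the lowest.

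Averaged over both sets, serotonin gave a member median of 0.20, with 66 above 0 and 13 below and 0 called higher or lower, where 0.00583% of genes were called higher (NR4A1 alone) and 0% lower. At an unadjusted p under 0.05 the members had 0 in each direction, against 7.16% of genes higher and 3.98% lower, and DESeq2 called 0 members, where it called 0.105% of genes higher. Without no-ligand B1 the median was -0.07, and without no-ligand B2 it was 0.70 with 36 members called higher, where 6.41% of genes were. The difference between the responses, A minus B, had a median of -0.72 with 2 members above 0 (RPL17 and RPS10) and 77 below, and 0 members were called in either direction, where 0% of genes were called higher and 0% lower. At an unadjusted p under 0.05 it had 1 member lower (RPL14) and 0 higher, against 8.84% and 6.11% of genes, and DESeq2 called 0 members, where it called 0.459% of genes lower. Without no-ligand B1 the median difference was -0.19, with 27 members above 0 and 52 below, and with the rRNA share as a covariate it was 0.034, with 43 above 0 and 36 below. Without no-ligand B2 it was -1.74, with 68 members called lower, where 11.7% of genes were.

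**Figure D4:**
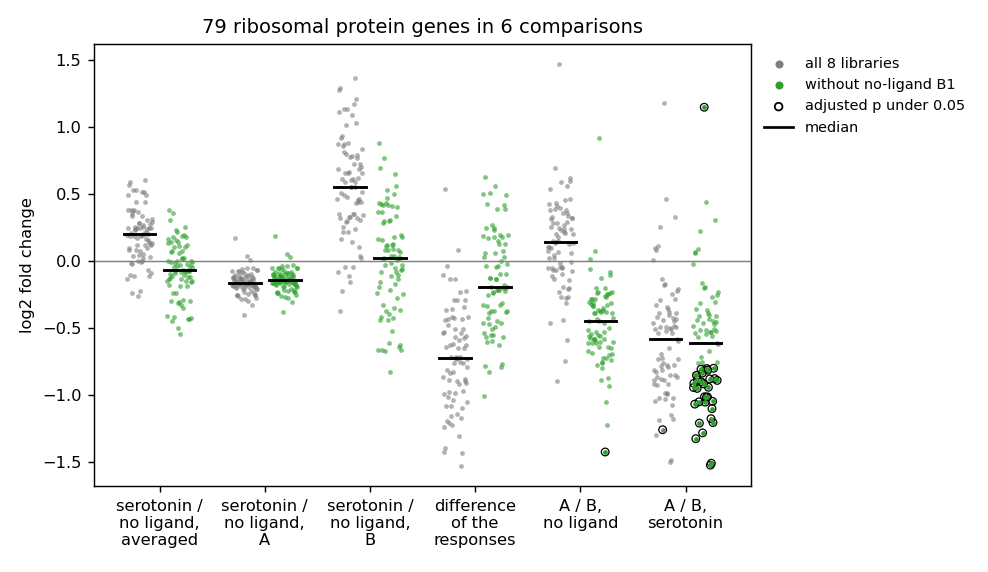
Log2 fold changes (vertical axis) of the 79 tested members in the 6 comparisons, 1 point per gene, from all 8 libraries (grey) and without no-ligand B1 (green); bars are medians and circles mark an adjusted p under 0.05 (edgeR). The medians of the comparisons that use the no-ligand B libraries shift when no-ligand B1 is left out (0.14 and -0.45 for A against B without ligand), whereas A against B after serotonin has medians of -0.58 and -0.61.

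After serotonin, most ribosomal protein genes had lower values in the A libraries than in the B libraries, but with all 8 libraries only 1 of 79 passed the test. In this comparison no-ligand B1 enters only through the filter, the scaling and the shared estimate of the spread. The median log2 fold change of the members was -0.58, against 0.02 for all genes, with 8 members above 0 and 71 below; it was -0.72 over the 47 large-subunit members and -0.52 over the 32 small-subunit members. The median was -0.94 without serotonin A1 and -0.37 without serotonin A2, the library with 15.4% of its counts in mitochondrial rRNA genes, and 0 members were called in either, where 40 and 27 genes were called lower. Without serotonin B1 the median was -0.63, and without serotonin B2 it was -0.64. With all 8 libraries the called member was RPL36A, lower, and 0 were higher (edgeR), where 2.92% of the 17144 genes were called lower and 2.33% higher. At an unadjusted p under 0.05, 13 members were lower and 0 higher, against 12.8% and 11.5% of genes. DESeq2 called 8 members lower (RPS24, RPL27A, RPL4, RPS16, RPS19, RPL18, RPL28 and RPL36A), where it called 5.26% of its genes lower. Without overlap, 56 members were lower in both serotonin A libraries than in both serotonin B libraries and 1, RPL39L, was higher, against 28.8% and 30.1% of genes.

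RPL36A (ENSG00000241343.9, chromosome X, 101390824 to 101396154, plus strand, hg38), a large-subunit protein at the tRNA exit site, had 8.42 and 7.35 normalised CPM in serotonin A1 and A2, against 18.6 and 19.3 in serotonin B1 and B2. Without ligand it had 8.01 and 8.47 in A1 and A2, against 17.9 and 13.6 in B1 and B2. All 4 A libraries were below all 4 B libraries, no-ligand B1 among them. The log2 fold change after serotonin was -1.26 (SE 0.29), with an adjusted p of 0.0321 in edgeR. That call was lost without serotonin A1 (adjusted p = 0.126), serotonin A2 (0.299), no-ligand A1 (0.0923), no-ligand A2 (0.0909) or serotonin B2 (0.191), with log2 fold changes between -1.16 and -1.37. Without ligand the log2 fold change was -0.90 (SE 0.29) and did not pass (adjusted p = 0.14 in edgeR). It is among the least expressed members, and its reads can be shared with its pseudogenes.

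When no-ligand B1 was left out, which narrows the estimated spread, 31 members were called lower in the serotonin A libraries and 1 higher, where 10.4% of 18453 genes were called lower and 7.67% higher; the member median was -0.61. Of these 31, 20 belonged to the large subunit and 11 to the small one. Leaving out no-ligand B2 in its place gave 27 lower and 1 higher, where 9.91% and 8.26% of genes were, and all 27 were among the 31. The 8 that DESeq2 called on all libraries were also among the 31. All these fits compare the same serotonin libraries, so the overlap of their calls is not a separate check on the difference. For RPS16 the log2 fold change was -1.52 without no-ligand B1 and -1.49 without no-ligand B2. Genes named next that the naming rule does not list were picked after their values were seen.

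RPS16 (ENSG00000105193.8, chromosome 19, 39433207 to 39435948, minus strand, hg38), a small-subunit protein that reaches the decoding region, had 630.2 and 442 normalised CPM in serotonin A1 and A2, against 1595 and 1428 in serotonin B1 and B2. Its no-ligand values were 596 and 608 in A1 and A2, against 445 and 1564 in B1 and B2. The 4 A libraries lay below every B library but no-ligand B1. After serotonin the log2 fold change was -1.50 (SE 0.52) with an adjusted p of 0.108, and -1.52 (SE 0.28) with 0.0013 without no-ligand B1 (edgeR). RPS19 (ENSG00000105372.7, chromosome 19, 41859918 to 41872926, plus strand, hg38), the gene most often mutated in Diamond-Blackfan anaemia, had 1002 and 690.3 in serotonin A1 and A2, against 2286 and 2435 in serotonin B1 and B2. Without ligand RPS19 had 911 and 959 in A1 and A2, against 439 and 1873 in B1 and B2. Its log2 fold change after serotonin was -1.48 (SE 0.57), adjusted p 0.139, and -1.51 (SE 0.28), adjusted p 0.00161, without no-ligand B1 (edgeR). The gap between the serotonin sets thus exceeded the spread of each pair in both genes. RPL18, a large-subunit protein, had 867 and 576, against 1467 and 2078 (-1.32, adjusted p 0.00494 in edgeR without no-ligand B1, and 0.145 with all libraries). RPL28, also of the large subunit, had 422 and 285, against 582 and 1022 (-1.21, adjusted p 0.0102, and 0.113 with all libraries). In RPL18 and RPL28 the 2 serotonin B libraries themselves stood far apart, with B2 above B1.

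**Figure D5:**
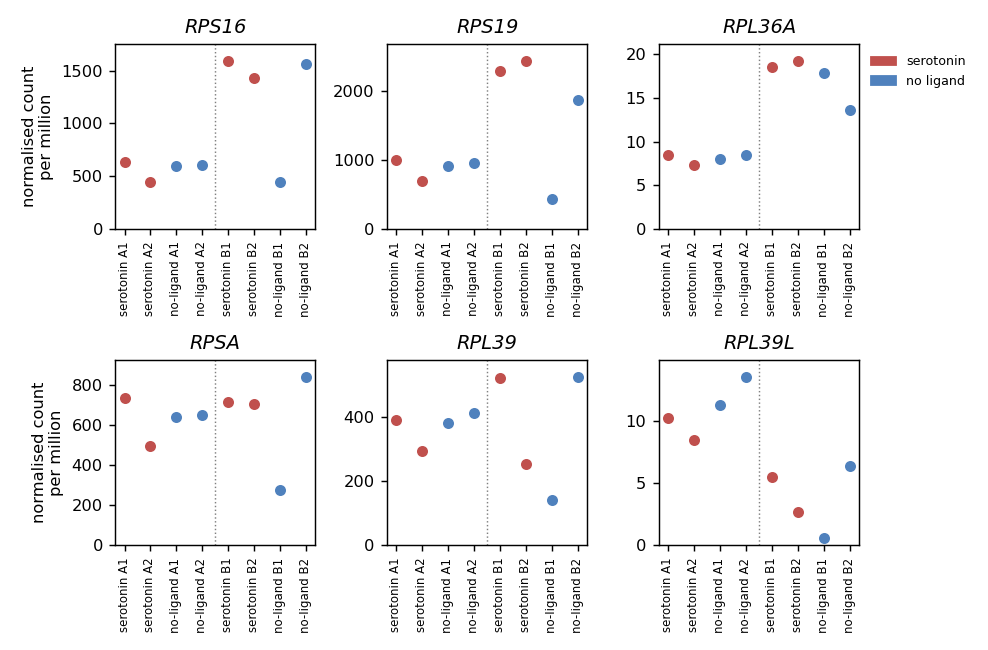
Normalised CPM (vertical axes, from 0) of 6 members in each of the 8 libraries, 1 point per library, red for serotonin and blue for no ligand, A libraries left of the dotted line. RPS16 and RPS19 are lower in the A libraries than in every B library but no-ligand B1, RPL36A is lower in all 4 A libraries and RPL39L higher in all 4, while RPSA and RPL39 overlap between the sets.

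By role, the members were uneven after serotonin. In the stalk, which recruits translation factors, RPLP1 had 1175 and 789 in serotonin A1 and A2, against 1999 and 1892 in serotonin B1 and B2, a log2 fold change of -1.01 (adjusted p = 0.0189 in edgeR) without no-ligand B1. RPLP2 had 492 and 325, against 639 and 769.7 (-0.81, adjusted p = 0.0463 in edgeR without no-ligand B1). Their scaffold RPLP0 had 1104 and 849, against 1452 and 1024, and did not pass (-0.37, adjusted p = 0.384). Whether RPLP0 differs from RPLP1 and RPLP2 in this was not tested. The pair RPL5 and RPL11, which bind MDM2 as a complex with rRNA, had log2 fold changes of -1.05 (adjusted p = 0.0114) and -0.94 (adjusted p = 0.0186) in the same fit. RPL5 stood at 582 and 441, against 972 and 1110.3, and RPL11 at 425 and 323, against 689 and 722, so that neither overlapped between the sets. RPL22, dispensable for ribosomes in mouse and replaceable by its paralog RPL22L1, had 206 and 171, against 332 and 384 (-0.95, adjusted p = 0.0144). With all 8 libraries none of these passed: the adjusted p in edgeR was 0.282 for RPLP1, 0.39 for RPLP2, 0.157 for RPL5, 0.213 for RPL11 and 0.163 for RPL22, with log2 fold changes between -1.03 and -0.79.

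Several members chosen by role did not pass with or without no-ligand B1. RPSA had 737 and 496 in serotonin A1 and A2, against 716 and 708 in serotonin B1 and B2, and the sets overlapped. RPL39, which lines the exit tunnel, had 391 and 294, against 522 and 254, with serotonin B2 the lowest of the 4. RPS27A, made as a fusion with ubiquitin, had 298 and 209, against 439.6 and 269, and overlapped too. RPL3, at the peptidyl transferase centre, had 989.6 and 754, against 1180.0 and 1264 (-0.51, adjusted p = 0.197 in edgeR without no-ligand B1), with no overlap. RPL10, one of the last proteins added to the large subunit, had 610.3 and 481, against 803 and 696 (-0.48, adjusted p = 0.216). RPS3, at the mRNA entry, had 984 and 631, against 1178 and 996 (-0.45, adjusted p = 0.274). In these 3 genes both A libraries were below both B libraries, and the difference missed the threshold. RPS6 had 779.8 and 573, against 987 and 1039.6 (-0.61, adjusted p = 0.119). RPS14 had 659.5 and 455, against 879 and 866 (-0.67, adjusted p = 0.0887). RPS4X, the X-linked small-subunit gene, had 1446 and 1129, against 1689 and 1669 (-0.41, adjusted p = 0.31). RPS6, RPS14 and RPS4X were likewise lower in both A libraries without passing, and a p that misses the threshold does not show equal levels. RPS27 had 311 and 257, against 438 and 335, and missed it as well (-0.47, adjusted p = 0.221).

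The paralogs did not share 1 direction. RPL39L, a paralog of RPL39 known for its role in male germ cells of the mouse, had 10.3 and 8.52 normalised CPM in serotonin A1 and A2, against 5.5 and 2.68 in serotonin B1 and B2, and 11.3 and 13.6 in no-ligand A1 and A2, against 0.576 and 6.38 in no-ligand B1 and B2. All 4 A libraries were above all 4 B libraries, and the value in no-ligand B1 is 1 count. Its log2 fold change after serotonin was 1.18 (SE 0.55) with all libraries (adjusted p = 0.22 in edgeR) and 1.15 (SE 0.36) without no-ligand B1 (adjusted p = 0.034). RPS27L, a paralog of RPS27 that p53 induces in human cells, had 22.7 and 16.7 in serotonin A1 and A2, against 37.7 and 33.5 in serotonin B1 and B2, and was called lower without no-ligand B1 (-0.87, adjusted p = 0.0175 in edgeR) but not with all libraries (adjusted p = 0.182). Besides RPL39L, 7 members were above 0 in the fit of all libraries: RPL7 at 0.46, RPS29 at 0.33, RPL30 at 0.25, RPL23A at 0.12, RPL15 at 0.10, RPL17 at 0.08 and RPL10A at 0.01. None of them passed, and in RPS29 serotonin B2 (73.7) stood far below serotonin B1 (166), with serotonin A1 and A2 at 185 and 118.

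Without ligand, the comparison of A with B libraries turned on no-ligand B1. With all 8 libraries the member median was 0.14, against 0.03 for all genes, with 52 above 0 and 27 below. Of the members 0 were called higher and 0 lower, where 1.52% of genes were called higher and 0.904% lower. At an unadjusted p under 0.05, RPL39L was higher and RPL36A lower, against 9.95% and 9.26% of genes, and DESeq2 called 0 members, where it called 2.60% of genes higher and 2.30% lower. Only 2 members were higher in both A libraries (RPL29 and RPL39L) and 3 lower (RPL17, RPS10 and RPL36A), against 29.7% and 24.6% of genes. Without no-ligand B1 the median was -0.45, with 3 members above 0 (RPL39L, RPL29 and RPL15) and 76 below. In that fit RPS16 was called lower (-1.42, SE 0.32, adjusted p = 0.0186 in edgeR), where 1.35% of genes were called lower. With all libraries RPS16 had -0.74 (SE 0.51) and did not pass (adjusted p = 0.451). RPS19 had -1.05 (SE 0.33) without no-ligand B1 and -0.31 (SE 0.55) with it, and passed in neither (adjusted p = 0.107 and 0.793). With the mitochondrial rRNA share as a covariate the median was -0.41, with 3 members above 0 and 76 below. Without no-ligand B2 the median was 1.18 and 50 members were called higher, where 11.6% of genes were, so the direction depended on which of the 2 no-ligand B libraries was used.

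The A against B comparisons with and without ligand share no library, but both set the same 2 cell sets against each other. For RPS16 the log2 fold changes without no-ligand B1 were -1.52 after serotonin and -1.42 without ligand, for RPS19 -1.51 and -1.05, for RPL18 -1.32 and -0.54, and for RPL36A -1.28 and -0.77. Each of the 4 was below 0 in both. In this fit so were most members, 72 of 79 after serotonin and 76 without ligand, so these signs are not particular to the 4 genes. No-ligand B2 is then the only no-ligand library of the B set. With all libraries the values without ligand were -0.74 for RPS16, -0.31 for RPS19, 0.09 for RPL18 and -0.90 for RPL36A, so that RPL18 was not below 0. The difference between the 2 comparisons is the difference between the serotonin responses, in which no member was called with or without no-ligand B1.

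The start class of the promoter was set beside these values as a description. After serotonin, the 46 tested members with a C and 4 further pyrimidines at a start had a median log2 fold change of -0.69 without no-ligand B1. The 17 with an entry but no such start had -0.54. The 16 members without a promoter entry had -0.49, with RPL39L among them at 1.15. With all 8 libraries the medians were -0.67, -0.52 and -0.47 in the same order, with 1, 0 and 0 called. In that fit 2.92% of genes were called lower and 2.33% higher. Without no-ligand B1, all 46 of the first class were below 0, with the highest at -0.16, while the second class reached 0.31. RPL4, whose window shows no run at the annotated start, was called lower (-1.01, adjusted p = 0.0186 in edgeR without no-ligand B1, and 0.162 with all libraries), and RPSA, with a tract of 7 pyrimidines, had -0.23.

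Other genes of the translation machinery were read from lists chosen with earlier results of these data known. After serotonin, the 7 tested of 9 further cytosolic ribosomal proteins and paralogs outside the naming rule had 0 called and a median of -0.47, with all 7 below 0. RACK1, a scaffold on the small subunit, had 1059.9 and 844 in serotonin A1 and A2, against 1686 and 1752 in serotonin B1 and B2. Of 20 translation factors and other genes known for TOP mRNAs 19 were tested, with a median of -0.36, and 2 were called lower: GAS5, a host gene of small nucleolar RNAs, and EEF1D, an elongation factor subunit. GAS5 had 109 and 77.4 in serotonin A1 and A2, against 266 and 324 in serotonin B1 and B2 (-1.66, SE 0.37, adjusted p = 0.03 in edgeR). EEF1D had 369.8 and 268, against 681 and 1402 (-1.71, SE 0.44, adjusted p = 0.049), with serotonin B2 far above serotonin B1. EEF1A1, the elongation factor that brings tRNA to the ribosome, had 3222 and 3152, against 2553 and 1736, and was not called. Against 2.92% of all genes called lower, these counts are of 0 and 2 genes, and the all-gene median was 0.02.

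In a list of 12 genes made for regulators of TOP mRNA translation, only MYC was called. It was lower after serotonin and again without ligand, where 2.92% and 0.904% of all genes were called lower. MYC is a transcription factor known to drive ribosomal protein genes, so the call is not of a translation regulator. MYC had 12.1 and 7.35 normalised CPM in serotonin A1 and A2, against 26.6 and 24.5 in serotonin B1 and B2 (-1.38, SE 0.30, adjusted p = 0.0286 in edgeR). Without ligand it had 9.93 and 8.96 in A1 and A2, against 55.9 and 42.2 in B1 and B2 (-2.36, SE 0.31, adjusted p = 0.00356). In both states every A library was below every B library, no-ligand B1 among them. The TOP regulators LARP1 and MTOR were not called in either; LARP1 had 165 and 188, against 199 and 189 after serotonin. Of 8 dedicated chaperones of single ribosomal proteins, PDCD2L, which is known to bind RPS2, was called lower after serotonin with 7.93 and 5.68, against 22.1 and 36.7 (-2.09, SE 0.46, adjusted p = 0.0285), and the list's median was -0.46. Of 78 mitochondrial ribosomal protein genes, 77 were tested, 0 were called in the 6 comparisons, and their median after serotonin was -0.33.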

How the data were processed

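PolyA RNA was sequenced after a stranded mRNA library kit, per the labels' protocols. The deposited file holds raw counts of read pairs per gene, made by the authors with featureCounts v2.0.1, reverse-stranded, on GENCODE 28, per the file headers; it is annotated on hg38, and cutadapt 3.4, STAR 2.7.8a and SAMtools 1.12 are named in the submitters' processing notes. The merged exon length that the authors deposited beside each gene served for levels per kb. Column names show that duplicates were marked. Multimapping pairs and pairs on overlapping genes were left out by featureCounts' defaults as far as the header's command shows, which bears on members with pseudogenes.

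All 8 columns entered 1 fit in edgeR 4.0.16 (R 4.3.3): filterByExpr kept 17144 of 58440 genes, TMM normalisation, quasi-likelihood F test, 4 combinations of treatment word and column letter with 2 libraries each, and Benjamini-Hochberg adjustment over all genes tested, called at an adjusted p under 0.05. The SE of a log2 fold change is its size divided by the root of F. The design is without the replicate block; the scripts were tested on simulated data. Alternatives were DESeq2 1.42.0, other scalings, no filter, the 4 compared columns alone, a replicate block and each library left out. Gene symbols were matched for 57799 IDs; GC content came from GENCODE 29 transcripts and promoters from RefSeq. Library totals ranged between 2604885 and 9072278 counts. Columns were grouped by treatment word; their letter is tied to no cell line by the labels. Named members are those of known roles and the paralogs, up to 8 largest called changes per comparison, the 5 highest and 5 lowest per kb, and any count of 5 or fewer; some of these are not reported here by name. The members and lists were chosen with earlier results of these data known.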

Additional observations from a re-analysis of the deposited data

Results flagged for a closer look

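In 48 sets of 4 libraries of 1 treatment, 4 had a library farther from the others than Dixon's 95% critical value. Chance gives about 1 set in 20 where the 4 libraries are of 1 kind and the sets are independent. Here each set mixes A and B libraries, and the sets reuse the same libraries, so that rate does not apply strictly. RPSA was lowest in serotonin A2, at 495.9 normalised CPM, against 708 to 737 in the other 3 serotonin libraries. RPS16 was highest in no-ligand B2, at 1564, against 445 to 608 in the other 3 no-ligand libraries; the 4 libraries span both sets, and serotonin B1 and B2 stood at 1595 and 1428. The mitochondrial share of counts was highest in no-ligand B1, at 54.37%, against 17.9% to 18.9% in the other 3 no-ligand libraries. The mitochondrial rRNA share was highest in the same library, at 43.91%, against 7.37% to 8.09%. With the mitochondrial rRNA share as a covariate, the members' median log2 fold change was 0.14 for serotonin in the B libraries and -0.41 for A against B without ligand; without the covariate these were 0.56 and 0.14.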

How the results depend on the processing

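Members called and the members' median log2 fold change are given for the comparisons in this order: serotonin averaged, serotonin in A, serotonin in B, difference of the responses, A against B without ligand, A against B after serotonin. Leaving out 1 library at a time, calls ranged 0 to 36, 0 to 0, 0 to 73, 0 to 68, 0 to 50 and 0 to 32, and medians ranged -0.07 to 0.70, -0.44 to 0.05, 0.021 to 1.56, -1.74 to -0.19, -0.45 to 1.18 and -0.94 to -0.37. The highest counts of calls came without no-ligand B2 (6.41% of genes in that direction for serotonin averaged, 15.3% for serotonin in B, 11.7% for the difference, 11.6% without ligand) and, after serotonin, without no-ligand B1 (10.4% lower, 7.67% higher). Both ends for serotonin in B and for A against B without ligand come from the no-ligand B pair. Without a filter on low counts, 4 members were called for serotonin in B (RPL14, RPS18, RPS20, RPL18; 3.72% of genes higher), 1 for A against B without ligand (RPL39L; 1.93% higher) and 4 after serotonin (RPS16, RPS19, RPL18, RPL36A; 3.32% lower). DESeq2 called 4 for serotonin in B (6.64% of genes higher) and 8 after serotonin (5.26% lower), the 4 compared columns alone 7 after serotonin (8.26% lower), and scaling by total count 0, where it moved the median of all genes to 0.30 after serotonin and 0.36 without ligand.

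The column suffix (with or without R) was also fitted as a replicate block: it gave 2 members for serotonin in B (RPL14, RPS20; 8.55% of genes higher and 4.39% lower) and changed no other count of members called among the serotonin comparisons. Deviations of same-suffix libraries correlated at 0.003 in A and 0.148 in B over 17144 genes, so the suffix is not taken to pair libraries. The next 3 settings were added after seeing the data. Without no-ligand B1 and serotonin B2, 6 members were lower without ligand (3.77% of genes) and 25 after serotonin (5.44%), 22 of these among the 31 lower without no-ligand B1 alone. With the mitochondrial rRNA share as a covariate, 3 members were lower without ligand (RPS23, RPS16, RPS19; 1.30% of genes), 26 were called after serotonin (25 lower, where 8.61% of genes were, and RPL39L higher, where 7.89% were), and the medians were 0.15, 0.16, 0.14, 0.034, -0.41 and -0.43 in the order above, so that serotonin in A, the difference and A against B without ligand changed sign. The covariate fit leans mainly on the no-ligand B pair, so it is not a separate check beside leaving out no-ligand B1. Leaving out the mitochondrial chromosome changed no count of members called at an adjusted p under 0.05. RPSA, at -0.21 after serotonin, was at 0.085 by total count and ranged -0.53 to 0.058 with 1 library left out; RPL39, at -0.18, was at 0.047 by total count and 0.12 with the rRNA covariate and ranged -0.61 to 0.40. The causes were not tested. The fewest counts, 2604885, were in no-ligand B1, where RPL39L had 1 count and RPL36A 31.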

Other observations

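The ratio of paralog to parent gene differed between the sets for RPL39L. Its normalised count was 2.63% and 2.9% of that of RPL39 in serotonin A1 and A2 and 2.97% and 3.3% in no-ligand A1 and A2, against 1.05% and 1.05% in serotonin B1 and B2 and 0.41% and 1.22% in no-ligand B1 and B2. Every A library was above every B library, and the ratio was not tested. RPS27L stood at 7.29% and 6.5% of RPS27 in serotonin A1 and A2 and 8.29% and 6.36% in no-ligand A1 and A2, against 8.61% and 10% in serotonin B1 and B2 and 9.39% and 8.3% in no-ligand B1 and B2. All 4 A libraries were below all 4 B libraries, by a small margin. RPL22L1 ranged between 3.47% and 7.03% of RPL22, with both ends in B libraries. These ratios are of counts per gene, not per length.

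Among the 8 genes listed as expressed in HEK293, LIN28B, an RNA-binding protein of early development, was called lower without ligand, with 23.9 and 25.4 normalised CPM in A1 and A2, against 65.7 and 56.9 in B1 and B2 (-1.31, SE 0.26, adjusted p = 0.0252 in edgeR). After serotonin it had 22.8 and 28.9 in A1 and A2, against 26.7 and 23.3 in B1 and B2, and was not called. PAX2, a kidney transcription factor, was called lower after serotonin, with 2.73 and 2.84, against 5.98 and 21.6, where serotonin B2 stood far above serotonin B1 (-2.29, SE 0.56, adjusted p = 0.0422). COL1A1, a fibroblast collagen and the only tested gene among the markers of other cells, was called higher without ligand. It had 28.3 and 31.6, against 12.1 and 12.2 (1.30, SE 0.30, adjusted p = 0.0486 in edgeR). Of all tested genes, 0.904% were called lower and 1.52% higher without ligand, and 2.92% were called lower after serotonin.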
